A study of Homo sapiens with 3 samples.

Results

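The comparison described here set A375 cells kept in suspension against A375 cells attached to their dish. A375 is a widely used human melanoma line that normally grows as an attached layer. Total RNA of each state was measured on 1 Illumina expression array, and another array of the series held suspended cells that had been given 1 day on a culture dish to attach again. All cells were kept in medium with 10% fetal bovine serum, and the suspended cells were made from attached ones by moving them to sterile plastic dishes in that same medium. The sources used here do not give how long they stayed in suspension, how many of them were alive or how many cultures each RNA came from.

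A probe belonged to the comparison when its detection p-value, the scanner's measure of signal above negative controls, was under 0.01 on at least 1 of the adherent and suspended arrays. That held for 18551 of 47323 probes (39.2%), of which 16676 were detected on both arrays, 1085 on the adherent array only and 790 on the suspended array only. At the edge of the threshold, 240 probes had a lower p-value of 0.0091 and were kept, and 213 had 0.0104 and were not. Named probes stood for 10994 genes, of 11062 detected on any of the 3 arrays. Each gene was represented by its brightest detected probe. By that probe, 10204 of these 10994 genes were detected on both arrays, 449 on the adherent array only and 341 on the suspended array only. With 1 array per state there is no replicate error, so no test was made and no difference below is shown to exceed the variation between cultures. The number of arrays limits the precision, and probes of the same gene on the same array are repeat readings of 1 RNA sample. By array, 17761 (adherent), 17466 (suspended) and 16826 (reattached) probes were detected, and their median signals were 4.58, 4.91 and 4.84 times those of undetected probes.

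The label of the cells was checked against markers. Of 14 markers of melanoma and the melanocyte lineage, 8 were detected in adherent and 7 in suspended cells, among them the lineage factors SOX10 and MITF, the surface proteoglycan CSPG4 and the tumour antigen PRAME. The pigment genes PMEL, MLANA, TYR and TYRP1 and the Schwann and melanocyte marker S100B were not detected on either array, so the differentiated markers of the lineage were absent. Summed signals of the detected markers were 6970 in adherent, 9578 in suspended and 7409 in reattached cells. These sums and those below are scanner signals before normalization. The median signals of detected probes also differed, at 233, 262 and 247 on the same arrays. Of 7 keratinocyte and epithelial markers, 2 were detected in adherent cells (KRT14 and KRT8, summed signal 207), 0 in suspended cells, and their summed signal was 167 after reattachment. Of 6 fibroblast markers 4 were detected in either state, with summed signals of 516 and 503, while COL1A1 and COL1A2 were not detected. Of 5 leukocyte markers CD14 and LYZ were detected in both states, with summed signals of 235 and 238, while PTPRC was not. After normalization CD14 and LYZ were slightly lower in suspension, by log2 differences of -0.16 and -0.12. Of 3 endothelial markers only PECAM1 was detected, and only in adherent cells. In bulk RNA, fewer cells of a type and less RNA per cell cannot be told apart.

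Attached cells sense the matrix through integrins at focal adhesions, which tie the membrane to actin filaments under tension and feed focal adhesion kinase and growth factor receptors. Loss of attachment lowers that tension and withdraws those signals, and in normal epithelium it starts a form of cell death called anoikis. Melanoma cells that survive without a surface are studied as a model of cells in the circulation, which have to travel unattached before they can lodge again.

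The promoters of 4 genes with large differences are printed first, 2 of genes that were higher and 2 of genes that were lower in suspension, because they let the reader see which known control motifs stand close to these starts. They come from RefSeq (GRCh38.p14) and run from 250 bases before to 50 bases after the first listed start, 5′ to 3′ on the gene's strand. Capitals mark the motifs found. CXCL8, on chromosome 4, encodes the neutrophil chemokine interleukin 8. PTGS2, on chromosome 1, encodes the inducible prostaglandin synthase COX-2. Its brighter probe had signals of 69 in adherent, near the detection limit, and 188 in suspended cells, a log2 difference of 1.98. The second probe was not detected in adherent cells and gave a log2 difference of at least 0.59. CPA4, on chromosome 7, encodes a secreted carboxypeptidase, and TM4SF18, on chromosome 3, a membrane protein with 4 transmembrane segments.
CXCL8, chr4:73740319-73740618, plus strand: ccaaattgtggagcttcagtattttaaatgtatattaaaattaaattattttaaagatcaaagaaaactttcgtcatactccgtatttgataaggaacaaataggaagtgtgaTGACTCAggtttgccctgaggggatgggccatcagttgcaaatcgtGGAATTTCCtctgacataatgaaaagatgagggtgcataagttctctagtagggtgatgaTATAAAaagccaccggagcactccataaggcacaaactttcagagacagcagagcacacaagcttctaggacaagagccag
PTGS2, chr1:186680374-186680673, minus strand: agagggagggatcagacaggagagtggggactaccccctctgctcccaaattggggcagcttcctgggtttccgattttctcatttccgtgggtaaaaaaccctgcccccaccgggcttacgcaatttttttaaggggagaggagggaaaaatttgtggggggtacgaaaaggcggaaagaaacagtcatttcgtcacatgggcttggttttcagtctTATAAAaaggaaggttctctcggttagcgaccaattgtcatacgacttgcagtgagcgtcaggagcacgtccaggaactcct
CPA4, chr7:130292911-130293210, plus strand: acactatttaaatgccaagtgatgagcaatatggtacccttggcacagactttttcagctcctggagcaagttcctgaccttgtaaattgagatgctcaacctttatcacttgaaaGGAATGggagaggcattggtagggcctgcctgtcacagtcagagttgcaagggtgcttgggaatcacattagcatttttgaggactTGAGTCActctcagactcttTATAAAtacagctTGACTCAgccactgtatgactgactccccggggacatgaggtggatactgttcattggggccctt
TM4SF18, chr3:149333587-149333886, minus strand: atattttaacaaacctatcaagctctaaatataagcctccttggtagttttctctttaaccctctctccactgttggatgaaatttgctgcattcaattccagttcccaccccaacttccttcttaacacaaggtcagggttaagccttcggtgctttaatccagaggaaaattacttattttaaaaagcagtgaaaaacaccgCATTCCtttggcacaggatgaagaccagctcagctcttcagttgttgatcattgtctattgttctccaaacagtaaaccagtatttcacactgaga

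The motifs searched were a TATA box (TATAAA, gene strand only) and, on both strands, the AP-1 site TGANTCA, the cyclic AMP response element TGACGTCA, an NF-kB core GGNNTTTCC, the TEAD site CATTCC and the E-box CACGTG. None of these letter strings contains another. The CXCL8 window held an AP-1 match beginning at -137, an NF-kB match at -91 and a TATA box at -31 from the start. PTGS2 held a TATA box at -32, CPA4 AP-1 matches at -48 and -15, a TATA box at -28 and a TEAD match on the other strand at -134, and TM4SF18 a TEAD match at -46. A match of letters is a description of the window and not a site of binding. TATA boxes were in 7.71% of the 27305 windows of the table, in 3.58% of the 8944 windows of genes compared, in 7 of 39 windows (17.9%) of genes at least 2-fold higher in suspension and in 5 of 54 (9.26%) of those at least 2-fold lower. AP-1 matches were in 7.76% of all windows, 4.42% of those of genes compared, 5 of 39 (12.8%) and 3 of 54 (5.56%). NF-kB matches were in 6.26%, 6.71%, 3 of 39 (7.69%) and 3 of 54 (5.56%), and TEAD matches in 14.0%, 10.7%, 5 of 39 (12.8%) and 5 of 54 (9.26%). Cyclic AMP response elements were in 1.98%, 3.43%, 2 of 39 (5.13%) and 1 of 54 (1.85%), and E-boxes in 7.43%, 10.5%, 1 of 39 (2.56%) and 3 of 54 (5.56%).

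MIR302C, a microRNA gene whose product is abundant in pluripotent stem cells, was also among the genes that were higher in suspension. Its mature sequences from RefSeq (GRCh38.p14, minus strand) are shown with the seed, bases 2 to 8, in capitals. The array probe bears the name of the gene. The sources used here do not say which RNA it reads, so it is not taken as a measure of the mature microRNA.
hsa-miR-302c-3p, chr4:112648366-112648388: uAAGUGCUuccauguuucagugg
hsa-miR-302c-5p, chr4:112648402-112648423: uUUAACAUggggguaccugcug
The MIR302C probe had levels of 5.63 in adherent, 7.21 in suspended and 6.26 in reattached cells, where a level is the normalized log2 signal. The log2 difference between suspended and adherent cells was 1.58. Probes for its cluster neighbours MIR302A, MIR302B, MIR302D and MIR367 were not detected on either array. LARP7, the gene that overlaps the cluster, had log2 differences of -0.08 and -0.16 with its 2 probes. MIR3142HG, the host transcript of miR-146a, had levels of 5.28, 6.78 and 5.91 and a 2.83-fold difference, while the MIR146A probe itself was not detected on either array. The adherent level of MIR3142HG was close to the lowest detected level of that array, 5.13.

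Most genes were close in both states, with a short tail on each side. Over the 10994 genes the median log2 difference was 0.00, the middle of the distribution (25th to 75th percentile) ran from -0.15 to 0.16, and the 5th and 95th percentiles were -0.43 and 0.47. Of these genes, 7936 (72.2%) lay within 1.2-fold and 5496 lay above 0. Suspended cells had 1186 genes higher by 1.25-fold or more and 1016 lower. At 1.5-fold or more, 298 were higher (2.71%) and 245 lower (2.23%). At 2-fold or more, 55 were higher (0.5%) and 72 lower (0.655%). With an offset of 50, with background left in or with the authors' deposited normalized values, 30 to 32 were higher and 37 to 38 lower at 2-fold, and 149 to 157 higher and 113 to 116 lower at 1.5-fold. The lower side reached farther, with 22 genes at 3-fold or more and 8 at 4-fold or more, against 5 and 1 on the higher side. Of the 55 higher genes, 49 code for proteins, 2 are small nuclear RNAs, and the others are a Y RNA, a microRNA gene, a long noncoding RNA and a pseudogene, while 70 of the 72 lower genes code for proteins and 2 are long noncoding RNAs. The small nuclear RNAs, RNU4-1 and RNU4-2, are near-identical copies and are uncertain as single genes.

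From a mean level of 6 upward, the spread over genes narrowed with signal. Among genes detected on both arrays the SD of log2 differences was 0.335 over 1214 genes with a mean level under 6, 0.373 over 1749 genes between 6 and 7, 0.307 between 7 and 8, 0.280 between 8 and 10, 0.220 between 10 and 12 and 0.214 over the 474 genes above 12. Between levels 6 and 7, 13 genes were 2-fold higher and 21 lower. Above level 10 there were 5 genes higher, CXCL8, CTHRC1, LAMA4, the metalloprotease inhibitor TIMP1 and the secreted neuropeptide precursor VGF, and 3 lower, CAV1, KRT80 and PTPRF. TIMP1 and VGF are named here after their values were seen.

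**Figure D1:**
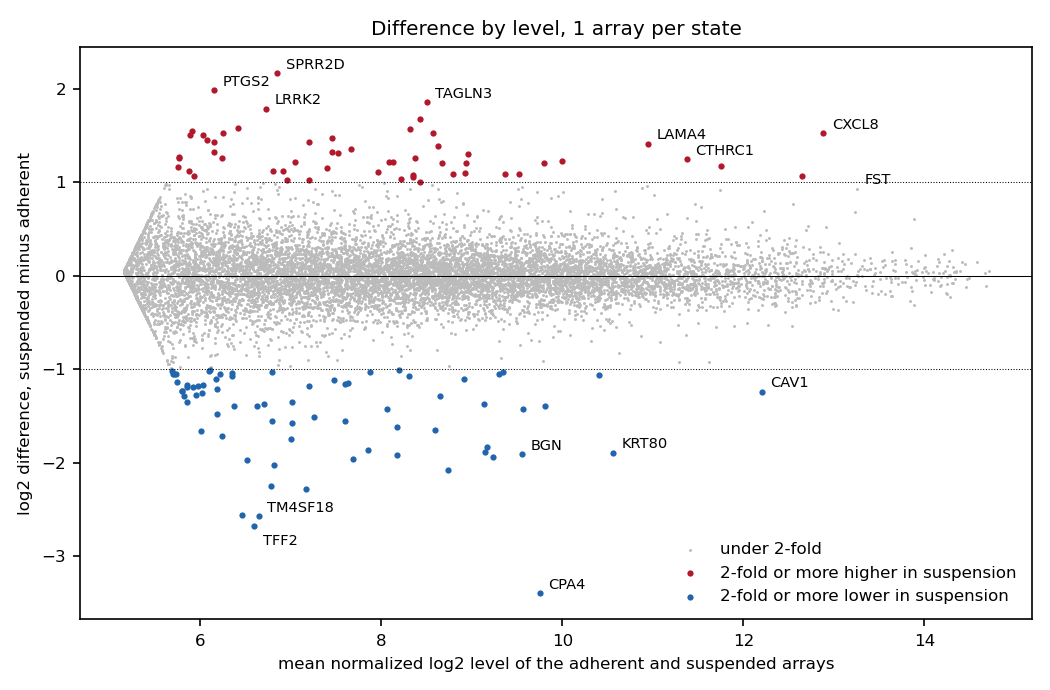
Log2 difference between suspended and adherent cells (vertical axis) against the mean normalized log2 level of both arrays (horizontal axis), 1 point per gene. Red points are the 55 genes at 2-fold or more higher and blue points the 72 at 2-fold or more lower in suspension, the dotted lines mark 2-fold, and the straight left edges come from values raised to the lowest detected level. CPA4 lies far below all other genes.

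A second reading of the same RNA was available for genes with more than 1 detected probe. Of 2938 such genes, 2367 had 2 probes and 571 had 3 or more, and the gene's brighter probe was set against the next brightest. Where the first probe differed by under 0.1 on the log2 scale, the second had the same sign in 552 of 1065 genes (51.8%). The share was 60.5% of 1065 genes at 0.1 to 0.25, 71.9% of 680 genes from 0.25 up to 1.5-fold, 86.8% of 91 genes from 1.5-fold to 2-fold and 89.2% of 37 genes at 2-fold or more. Among those 37 genes the second probe passed 1.5-fold in the same direction in 28 and 2-fold in 19, and the median ratio of the second difference to the first was 0.742. Of 17 genes 2-fold higher with a second probe, 15 had the same sign and 8 reached 2-fold. Of 20 genes 2-fold lower, 18 had the same sign and 11 reached 2-fold. The second probe was not detected on 1 of the arrays in 1 of the 17 and 5 of the 20 genes, which caps its difference. Without them, 14 of 16 higher and 13 of 15 lower genes had the same sign, and 8 and 11 reached 2-fold. Across the 2589 genes whose probes were detected on both arrays, the first and second differences had a Pearson correlation of 0.52 and a Spearman correlation of 0.36, given as a description across genes that share the same 2 arrays. Every probe passed 1.5-fold in 1 direction for 32 genes on the higher and 21 on the lower side, and 2-fold for 8 and 10.

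**Figure D2:**
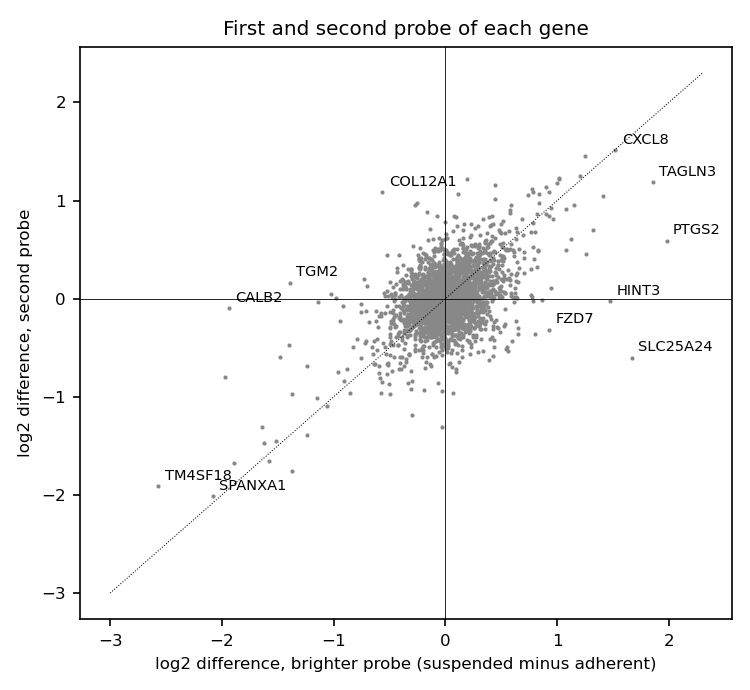
Log2 difference between suspended and adherent cells for the brighter probe (horizontal axis) and the second probe (vertical axis) of each of 2938 genes, 1 point per gene, with equality as a dotted line and bounds plotted at their value. Genes such as TM4SF18, SPANXA1 and CXCL8 lie near the line, whereas SLC25A24 and COL12A1 lie in the quadrants of opposite sign.

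Among the 15 genes for which all probes pointed to higher levels by the most, CXCL8 came first. Signals here and below are scanner values before normalization. Folds and log2 differences come from the normalized levels, so they differ from the ratios of these signals. CXCL8 had signals of 4487 in adherent, 13462 in suspended and 8450 in reattached cells, and both of its probes gave a log2 difference of 1.52 between suspended and adherent cells, or 2.87-fold. Suspended cells had the most and adherent cells the least. CTHRC1, a secreted glycoprotein of the matrix, had signals of 1730, 4455 and 2219, a 2.37-fold difference, with log2 differences of 1.25 and 1.46 by its probes. LAMA4, a chain of basement membrane laminins, had 1226, 3533 and 2044, with 1.41 and 1.05. PMEPA1 is a membrane protein, induced by TGF-beta, that holds back SMAD signalling. Its signals were 352, 841 and 419 and its log2 differences 1.20 and 1.25. TAGLN3, a neuronal member of the calponin family, had signals of 222, 780 and 356 and log2 differences of 1.85 and 1.19.

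FST encodes follistatin, which binds and neutralizes activin. Its levels were 12.79 in adherent, 13.72 in suspended and 13.47 in reattached cells, a log2 difference of 0.93, and its second probe gave 1.09. HAPLN1, the link protein that fixes proteoglycans to hyaluronan, had levels of 10.13, 11.04 and 10.64 and log2 differences of 0.90 and 0.86. PXYLP1, a phosphatase of the linkage region of glycosaminoglycan chains, had levels of 9.27, 10.17 and 10.21 and log2 differences of 0.90 and 1.14. By this probe reattached cells were as high as suspended ones. The other probe read 9.19, 10.33 and 9.96, with the reattached level between. ENPP2 encodes autotaxin, the secreted enzyme that makes lysophosphatidic acid. Its levels were 5.83, 6.67 and 5.88, and its log2 differences 0.84 and 0.98. Reattached cells were here at the level of adherent ones, while the second probe read 5.47 in adherent and 5.67 in reattached cells.

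CDCP1, a surface glycoprotein phosphorylated by Src kinases, had levels of 6.45, 7.47 and 7.03 in adherent, suspended and reattached cells, and its probes gave log2 differences of 1.02 and 1.22. FCGR2A, a receptor for immunoglobulin G with near-identical relatives that a probe may not tell apart, gave 1.02 and 1.23. The orphan nuclear receptor NR4A2 gave 1.00 and 1.18, and GEM, a small GTP-binding protein that restrains calcium channels, 1.15 and 0.96. The phosphatidylinositol transfer protein PITPNC1 gave 1.08 and 0.92, and the phosphoprotein ARPP21 0.95 and 0.92. In all 6 of these genes the reattached level lay between the other levels, and adherent cells had the lowest.

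On the lower side the genes with concordant probes were led by a cancer-testis family, TM4SF18 and a keratin. TM4SF18 had signals of 274 in adherent, 79 in suspended and 143 in reattached cells, and its probes gave log2 differences of -2.57 and -1.91. Its signal in suspension was near the detection limit. KRT80, a keratin of epithelial intermediate filaments, had signals of 2904, 884 and 1668, a 3.71-fold difference, and log2 differences of -1.89 and -1.67. CAV1, the coat protein of caveolae, had 7214, 3345 and 5135, with -1.24 and -1.39. Adherent cells were highest and suspended cells lowest for all 3 genes. SPANXA1 had signals of 895, 259 and 420 and log2 differences of -2.08 and -2.02. The SPANX genes are near-identical copies on the X chromosome, and SPANXA2 (-1.84), SPANXB1 (-1.89), SPANXC (-1.92) and SPANXD (-1.62, with other probes at -1.47 and -1.63 and a further one, not detected in suspension, bounded at -0.54) may read the same transcripts, so that these log2 differences are values of the family and not of 5 separate genes.

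SULF2, an extracellular enzyme that removes sulfate groups from heparan sulfate, had signals of 919 in adherent, 414 in suspended and 516 in reattached cells. Its 3 probes gave log2 differences of -1.37, -1.76 and -1.38. EVA1A, a membrane protein linked to autophagy, had levels of 9.42, 7.77 and 8.90, and its 3 probes gave -1.65, -1.31 and -1.61. IL1RL1, the receptor for interleukin 33, had levels of 7.80, 6.22 and 7.20, with log2 differences of -1.58 and -1.66. PLAC8, a small cysteine-rich protein, had levels of 8.02, 6.50 and 7.03, with -1.52 and -1.45. In these 4 genes the reattached level again lay between the others. The receptor-type phosphatase PTPRF had levels of 10.93, 9.87 and 10.87 by its brighter probe, so that reattached cells were close to adherent ones by that probe. Its log2 differences were -1.06 and -1.09. The second probe read 8.69 in adherent and 8.24 in reattached cells, and so put reattached cells farther from adherent ones.

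Smaller concordant differences on the lower side were seen for the cytidine deaminase APOBEC3G (log2 differences of -1.15 and -1.01), the dehydrogenase DHRS2 (-1.37 and -0.97), the calcification inhibitor MGP (-0.91 and -0.84), the pseudokinase PRAG1 (-0.96 and -0.74) and the ERBB ligand NRG1 (-0.88 and -0.72). Neither probe of the hemidesmosome integrin ITGB4 was detected in suspension, and they bound it at 2.36-fold lower or more and at a log2 difference of -0.69. The second probes of MGP and NRG1 were not detected in suspension either, so that their values are bounds. MGP had levels of 7.32, 6.42 and 6.53, so that reattached cells stayed near the suspended level. NRG1 had levels of 6.13, 5.25 and 6.17, so that reattached cells were at the adherent level by this probe. The second probe read 5.89 in adherent and 5.62 in reattached cells.

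**Figure D3:**
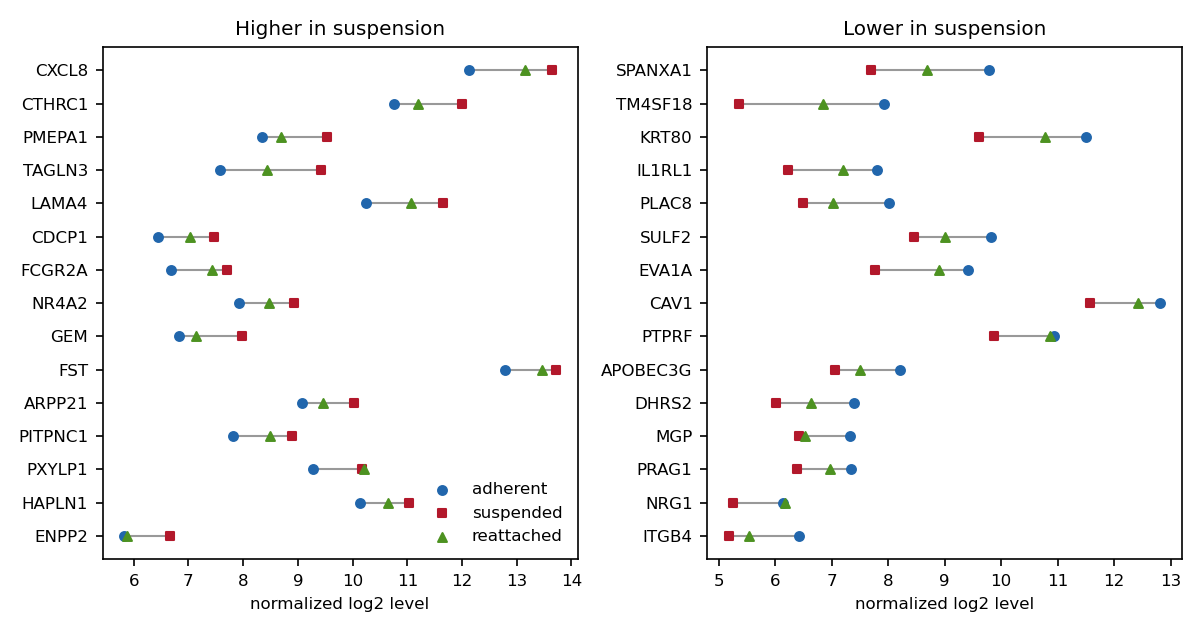
Normalized log2 level (horizontal axis) of the adherent, suspended and reattached array for the 15 genes on each side whose probes all pointed 1 way by the most, 1 array per state and no error bars. In 28 of the 30 genes the reattached triangle lies between the other symbols, the exceptions being PXYLP1 and NRG1 with a triangle just beyond the pair. Levels are those of 1 probe per gene, and the other probe of PXYLP1 and of NRG1 had a reattached level between.

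Probes of the same gene went opposite ways in some cases. In 31 genes, probes stood on both sides of 0 past 1.25-fold. The brighter probe of SLC25A24, a mitochondrial ATP and phosphate carrier, read signals of 224 in adherent, 700 in suspended and 396 in reattached cells (log2 difference 1.67), and its second probe 266, 202 and 204 (-0.60). COL12A1, a fibril-associated collagen, gave log2 differences of -0.56 and 1.08. TGM2, a transglutaminase that cross-links matrix proteins, gave -1.39 with its brightest probe and 0.16 and 0.11 with the others. For these 3 genes the direction therefore depended on the probe. HINT3, a nucleotide hydrolase, gave 1.48 and -0.03, the phosphatase PTPN22 1.12, 0.61 and -0.23 (the last not detected in suspension), and the small MAF protein MAFF -0.03, 0.50 and 1.25. The WNT receptor FZD7 gave 0.93 and -0.32, and GCLC, a subunit of the enzyme that starts glutathione synthesis, -0.28 and 0.95. The sources used here do not say which transcripts each probe reads.

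Among genes detected on both arrays, those ranked 11 to 25 on the higher side included THBS2, HMCN1, CPE and NRCAM. THBS2, a thrombospondin of the matrix, had levels of 5.34, 6.80 and 6.10 in adherent, suspended and reattached cells, a log2 difference of 1.45. HMCN1, a fibulin-family protein of basement membranes, had levels of 6.98, 8.34 and 7.54, a difference of 1.36. CPE, the carboxypeptidase that trims prohormones, had 7.93, 9.32 and 8.77, a difference of 1.39. The neural adhesion molecule NRCAM gave log2 differences of 1.32 and 0.70 by its probes. Suspended cells had the highest and adherent cells the lowest level of each. UCN2, a peptide hormone of the corticotropin-releasing factor family, had levels of 8.31, 9.61 and 8.92, the transcription factor EGR3 6.87, 8.18 and 7.61, and the formin DAAM2 5.61, 6.87 and 6.51, with log2 differences of 1.30, 1.32 and 1.26. The fatty acid hydroxylase CYP4B1 gave a difference of 1.43 and the Y RNA gene RNY4 1.33. In adherent cells CYP4B1, at a level of 5.43, RNY4, at 5.49, and THBS2 were near the lowest detected level, 5.13. The spliceosomal RNA gene RNU4-2 had levels of 6.49, 7.92 and 6.36 and differed by 1.43. The olfactory receptor pseudogene OR7E156P gave 1.26 and 0.46, and belongs to a family of close copies that probes may not tell apart.

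On the lower side, ranks 11 to 25 included BGN, SUSD2, VIPR1 and L1CAM beside 3 SPANX genes. BGN, the small proteoglycan biglycan, had levels of 10.51, 8.60 and 9.01 in adherent, suspended and reattached cells, a log2 difference of -1.91. SUSD2, a membrane protein with adhesion domains, had 8.78, 6.92 and 7.92, a difference of -1.86. The receptor for vasoactive intestinal peptide VIPR1 had 7.88, 6.13 and 6.89, a difference of -1.75, and the adhesion molecule L1CAM 7.09, 5.38 and 6.43, a difference of -1.71. Adherent cells had the highest level of all 4. SERINC2, a membrane protein of the serine incorporator family, gave a log2 difference of -1.56, and NMNAT2, an enzyme of NAD synthesis in nerve cells, -1.55. The protease inhibitor SERPINB7 gave -1.48, and its second probe, not detected in suspension, a bound of -0.59. TELO2, a co-chaperone of large phosphatidylinositol 3-kinase-like kinases, had levels of 8.78, 7.35 and 7.01, a difference of -1.43, so that its reattached level was lower still.

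For 790 genes the representing probe was not detected on 1 of the arrays. The undetected value was raised to the lowest detected level of its array, which makes the difference a bound. In 79 of them the bound ran against the detection and no fold is given. By these bounds 4 genes were at least 2-fold higher and 10 at least 2-fold lower in suspension. After A4GALT, COL9A2 and LHX8, the brightest genes detected in suspended cells only were the lipid flippase ATP10B, with signals of 68 in adherent, 126 in suspended and 91 in reattached cells and at least 2.39-fold higher, and RASL12, a small GTPase, at least 1.98-fold higher. The neuropeptide NTS followed at 61, 110 and 59 and at least 1.97-fold higher. NTS was thus seen in suspension and not after reattachment. The phosphatase PTPRU was at least 1.96-fold, the cyclic nucleotide phosphodiesterase PDE3A at least 1.95-fold, the neutrophil chemokine CXCL2 at least 1.92-fold and the estradiol-forming enzyme HSD17B1 at least 1.79-fold higher.

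After ALPK2, MAL2 and SCNN1A, the brightest genes detected in adherent cells only were FRAS1, a matrix protein of basement membranes, with signals of 120 in adherent, 72 in suspended and 91 in reattached cells and at least 2.43-fold lower in suspension, and the calcium-binding protein S100P, with 117, 70 and 92 and at least 2.36-fold lower. TMPRSS3, a membrane serine protease, was at least 2.20-fold lower by its brighter probe, and its second probe, also not detected in suspension, was too dim in adherent cells to bound the difference by more than -0.03 on the log2 scale. NEXN, which binds actin filaments, had 108, 73 and 109 and was at least 2.08-fold lower, so that reattached cells were at the adherent signal. The neural crest receptor NGFR was at least 2.07-fold and the potassium channel KCNJ2 at least 2.02-fold lower. All of these signals lie near the detection limit.

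Gene families were described by lists that were chosen with earlier results of these data known, so their counts support nothing on their own. Of 1326 distinct genes in 36 lists, 998 were measured. Of those, 44 (4.41%) were 1.5-fold or more higher and 43 (4.31%) 1.5-fold or more lower in suspension, beside 2.71% and 2.23% of all genes compared. List medians ran from -0.37 to 0.23 on the log2 scale, beside 0.00 over all genes. A bound is the smallest size of difference that the lowest detected level allows. Values of list members below are log2 differences between suspended and adherent cells unless levels are named.

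**Figure D4:**
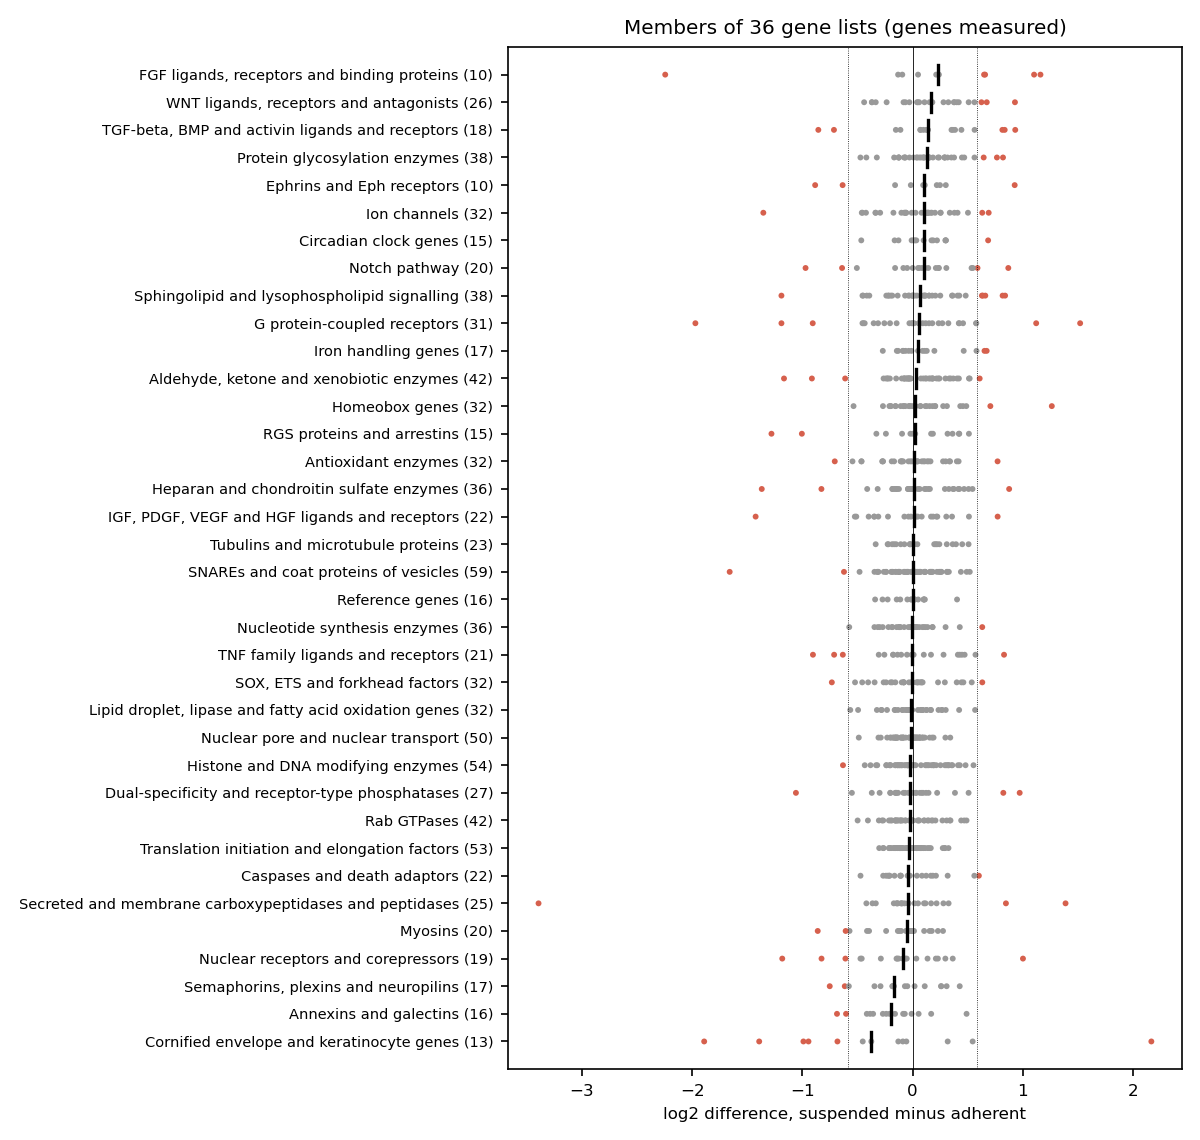
Log2 difference between suspended and adherent cells (horizontal axis) of each measured member of 36 gene lists, with the number of measured genes in brackets. Black bars are list medians, red points are members at 1.5-fold or more (dotted lines) and grey points lie within it. Most members lie within 1.5-fold, and the medians run from -0.37 for cornified envelope and keratinocyte genes to 0.23 for FGF genes.

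Growth factor families held genes on both sides. Of 10 measured FGF ligands, receptors and binding proteins, 4 were 1.5-fold or more higher and 1 lower, with a median of 0.23. The receptor FGFR4 had levels of 5.17, 6.33 and 5.85 in adherent, suspended and reattached cells, a log2 difference of 1.16. Its adherent level was close to the lowest detected level of that array, 5.13. FGF13, an intracellular FGF homologous factor that binds sodium channels, had levels of 8.37, 9.48 and 9.08, a difference of 1.10. The decoy receptor FGFRL1 differed by 0.66 and by 0.51 with a second probe, and FGFR3 by 0.65 but by -0.30 with a second probe. The carrier FGFBP1 went the other way, with levels of 7.90, 5.65 and 6.75, a difference of -2.24. Of 18 TGF-beta, BMP and activin ligands, receptors and antagonists (median 0.14), 14 lay above 0. Besides FST, the ligands TGFB3 (0.84) and BMP6 (0.82) were higher, while the follistatin-like genes FSTL1 (-0.85) and FSTL3 (-0.71) were lower. Of 22 IGF, PDGF, VEGF and HGF genes (median 0.01), IGFBP4, which sequesters insulin-like growth factors, was lower with levels of 10.28, 8.85 and 9.84 (-1.42). The receptor IGF1R was not detected in adherent cells and was at least 0.77 higher on the log2 scale.

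WNT, Notch, Eph and semaphorin genes follow. Of 26 measured WNT ligands, receptors and antagonists (median 0.17), 18 lay above 0, 3 were 1.5-fold or more higher and 0 lower. The kinase GSK3B, which marks beta-catenin for destruction, had levels of 10.10, 10.77 and 10.55 in adherent, suspended and reattached cells (0.67), the receptor FZD8 differed by 0.63, and FZD7 had the opposed probes given above. Of 20 Notch pathway genes (median 0.10), the target gene HEY1 differed by 0.87, with a second probe at -0.01, and the receptor NOTCH2 by 0.59. The glycosyltransferase LFNG, which tunes Notch receptors, differed by -0.97, and MFNG was not detected in suspension and bounded at -0.64. Of 10 ephrins and Eph receptors (median 0.10), EPHA3 had levels of 9.05, 9.98 and 9.64 (0.93, second probe 0.84), whereas EPHA2 had 9.76, 8.88 and 9.37 (-0.88) and EPHB1 differed by -0.63. EPHA3 and EPHA2 thus went opposite ways. Of 17 semaphorins, plexins and neuropilins (median -0.17), the secreted guidance ligands SEMA3C (-0.75) and SEMA3A (-0.61) were lower and 0 were higher by 1.5-fold.

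Receptors, channels and their regulators included some of the larger differences. Of 31 listed G protein-coupled receptors (median 0.05), 2 were 1.5-fold or more higher and 3 lower. The list does not hold every such receptor, and VIPR1 (-1.75), given above, is not in these counts. GPR37 had levels of 6.24, 7.37 and 6.85 in adherent, suspended and reattached cells (1.12), and the itch receptor MRGPRX4 5.49, 7.01 and 6.09 (1.52). The adherent level of MRGPRX4 was near the lowest detected level, 5.13. The adhesion receptor ADGRF1 (-1.97, with other probes not detected in suspension and bounded at -0.80 and -0.08), the lysophosphatidic acid receptor LPAR1 (-1.19) and the adenosine receptor ADORA1 (-0.91) were lower. Of 15 RGS proteins and arrestins (median 0.02), RGS7 (-1.28) and RGS16 (levels 6.61, 5.61 and 6.37), which shorten G protein signals, were lower and 0 were 1.5-fold higher. Of 32 listed ion channels (median 0.10), the chloride channel ANO1 (0.69, with other probes at 0.65 and 0.34) and the cation channel TRPM4 (0.63) were higher. SCNN1A was lower, not detected in suspension and bounded at -1.35. KCNJ2, lower as given above, was not in this list. Sphingolipid and lysophospholipid genes (38 measured, median 0.07) had 5 members at 1.5-fold or more higher and 1 lower. With ENPP2 stood SPHK1, the kinase that makes sphingosine 1-phosphate (levels 5.93, 6.75 and 6.18, difference 0.82), the phospholipase PLA2G4A (0.66), the sphingomyelin synthase SGMS1 (0.64) and PLPP3, which degrades lysophosphatidic acid (0.63). LPAR1, the lower member, had levels of 6.51, 5.32 and 5.69.

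Myosins, tubulins and annexins held few members at 1.5-fold or more. Of 20 myosins (median -0.05), MYO6, the motor that walks toward the minus end of actin filaments, differed by -0.86 and MYO18A by -0.61. Of 23 tubulins and microtubule proteins (median 0.01), 0 reached 1.5-fold. Annexins and galectins, which bind membranes and sugars, had 13 of 16 members below 0 and a median of -0.20, with ANXA6 (-0.69) and the lectin CLEC11A (-0.60) at 1.5-fold or more.

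The cornified envelope and keratinocyte list had the lowest median, -0.37 over 13 measured of 35 listed genes, with 5 members at 1.5-fold or more lower and 1 higher. That median ran from -0.43 to -0.10 over the alternative ways of processing. KRT80, TGM2 (with the other probes given above), S100A2 (-0.68), KRT14 and KRT8 were the lower ones, and the last pair was not detected in suspension, with bounds of -0.99 and -0.94. SPRR2D, a cornified envelope precursor, went the other way, with levels of 5.77 in adherent, 7.93 in suspended and 6.69 in reattached cells (2.17). SPRR2 genes are close copies, so the value is uncertain as that of a single gene. KRT14 and KRT8 are also the detected keratinocyte markers given above, so that marker sum and this list share them. Their signals were 104 and 102 in adherent cells and 70.1 and 61.5, under the detection limit, in suspended cells.

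Enzymes of sugars and matrix differed in a few members. Of 38 protein glycosylation enzymes (median 0.13), 27 lay above 0, 3 were 1.5-fold or more higher and 0 lower. The sialyltransferase ST6GAL1 had levels of 10.02, 10.84 and 10.61 in adherent, suspended and reattached cells (0.82, second probe 0.86), the core fucosyltransferase FUT8 8.52, 9.28 and 9.03 (0.77), and GALNT2, which starts mucin-type chains, 8.63, 9.27 and 8.98 (0.65). All 3 were highest in suspension. Of 36 heparan and chondroitin sulfate enzymes (median 0.01), SULF2 was lower as given above, the sulfotransferase HS3ST1 was not detected in suspension and bounded at -0.83, and CSGALNACT1, which starts chondroitin chains, was higher (0.88). Of 25 carboxypeptidases and other secreted or membrane peptidases (median -0.04), CPA4 had levels of 11.45, 8.05 and 10.53 (-3.39). CPE (1.39) and CPN1 (0.85), members of another carboxypeptidase subfamily, were higher.

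Nuclear and cytokine families were split. Of 19 nuclear receptors and corepressors (median -0.09), NR2F1 had levels of 7.79, 6.61 and 7.31 in adherent, suspended and reattached cells (-1.18), PPARG, the regulator of fat cell formation, 11.03, 10.21 and 10.70 (-0.83, second probe -0.50), and the vitamin D receptor VDR differed by -0.61, while NR4A2 was the only member higher by 1.5-fold or more. Of 32 homeobox genes (median 0.03), DLX1 was higher (0.71, second probe 0.42), as was LHX8, not detected in adherent cells and bounded at 1.26. Of 32 SOX, ETS and forkhead factors (median -0.01), SOX4 was higher (0.63), and FOXP1 had a probe detected in adherent cells only, bounded at -0.73, and another detected in suspended cells only, at 0.20. Of 15 circadian clock genes (median 0.10), DBP was not detected in adherent cells and bounded at 0.69, and CRY1 differed by -0.47 with both probes. Of 21 TNF family genes (median -0.01), the adaptor TRAF1 was higher (0.83). The decoy receptor TNFRSF11B (-0.90), the death receptor TNFRSF21 (-0.71) and the ligand TNFSF9 (-0.63) were lower. Of 22 caspases and death adaptors (median -0.04), RIPK4 was higher (0.60), and APAF1, the scaffold of the apoptosome, differed by 0.56 with its brighter probe and by -0.53 with a second probe that was not detected in suspension.

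Metabolic families held few large differences. Of 42 aldehyde, ketone and xenobiotic enzymes (median 0.03), ALDH3B1 (-1.17), the aldo-keto reductase AKR1C3 (-0.91) and the retinoic acid hydroxylase CYP26B1 (-0.61) were lower and the sterol hydroxylase CYP27A1 (0.61) higher. AKR1C genes are similar in sequence, so AKR1C3 is uncertain as a single gene. Of 32 antioxidant enzymes (median 0.02), the mitochondrial thioredoxin TXN2 differed by -0.71, and the extracellular superoxide dismutase SOD3, not detected in adherent cells, was bounded at 0.77. Of 17 iron handling genes (median 0.05), MELTF, the melanotransferrin named for melanoma, differed by 0.65 with its brighter probe and by -0.36 with a second probe that was not detected in suspension, and the iron carrier LCN2, not detected in adherent cells, was bounded at 0.67. Of 36 nucleotide synthesis enzymes (median 0.00), NT5E, the surface enzyme that makes adenosine, was higher with levels of 9.40, 10.03 and 9.60 (0.63).

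Some lists had no member at 1.5-fold or more. Of 53 translation factors (median -0.03), 50 nuclear pore and transport genes (median -0.02), 42 Rab GTPases (median -0.03) and 32 lipid droplet, lipase and fatty acid oxidation genes (median -0.01), 0 reached 1.5-fold in either direction. The same held for the 16 reference genes (median 0.00), among which GUSB was highest (0.40) and YWHAZ lowest (-0.34, second probe -0.39). The translation factors lay between -0.30 for EIF3F and 0.33 for EIF3C, whose close copy EIF3CL its probe may also read. Of 59 SNAREs and vesicle coat proteins (median 0.01), MAL2, not detected in suspension (bounded at -1.66), and the clathrin adaptor AP2B1 (-0.62, second probe -0.23) were lower. Of 54 histone and DNA modifying enzymes (median -0.03), the mitochondrial deacylase SIRT5 was lower (-0.63, second probe -0.66). Of 27 listed dual-specificity and receptor-type phosphatases (median -0.03), PTPRF was lower as given above. PTPRU and DUSP10, which inactivates stress kinases, were not detected in adherent cells and bounded at 0.97 and 0.82. The receptor-type phosphatase PTPRR, which is not in the list, differed by -1.40. Its second probe, not detected in suspension, was bounded at -0.47.

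The reattached array, also 1 array, held cells that had themselves been in suspension. Of the 51 genes at least 2-fold higher in suspension and detected on both arrays, 49 had a reattached level between the adherent and the suspended level, and 2, RNU4-1 and RNU4-2, lay below the adherent level. Of the 62 at least 2-fold lower, 60 lay between. The matricellular gene CCN1, a target of the mechanosensitive factors YAP and TAZ, had levels of 9.86 in adherent, 8.83 in suspended and 10.14 in reattached cells and so lay above the adherent level, and TELO2 lay below the suspended one. Genes chosen for a large difference between a pair of arrays will tend to lie between them on any other array, so these counts are a description and no measure of recovery.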

How the data were processed

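Trizol was used for RNA extraction and an Ambion kit for biotinylated cRNA, per the labels' protocols. Per the file headers, the deposited table of scanner values gives a linear signal intensity with a detection p-value for each probe on each array. The sources used here name neither the scanner software nor any earlier background step. The authors' second deposited table holds intensity values that share nearly 1 distribution (median 58.1), on a linear scale and not centred. The sources used here do not say how it was made, and it served as an alternative.

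Background correction, quantile normalization over the 3 arrays and log2 were done with neqc of limma 3.58.1 (R 4.3.3, offset 16). Tables and plots were made with Python 3.11.15, pandas 2.3.3, numpy 2.4.6, scipy 1.17.1 and matplotlib 3.10.9. The offset shrinks the differences of dim genes. Of 47323 probes, 30113 had 1 gene symbol in the platform annotation, 8 had several (left out) and 17202 none here. The GRCh38.p14 gene table held the Entrez identifiers of 30074 probes. A gene was represented by its probe detected on at least 1 of the 2 arrays with the highest mean log2 level over the 3 arrays. Undetected values under the lowest detected level of their array were raised to it. No test was run, since each state had 1 array. The procedure was tested on simulated data.

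The genes named were, on each side, the 15 genes whose least different probe differed most among genes with concordant probes, those ranked up to 25 by the representing probe, the 10 brightest detected on 1 array only, the 8 with the most opposed probes, and list members at 1.5-fold or more or, in lists with fewer than 2 such members, the 2 farthest from 0. Of these some are not printed. Provisional symbols (LOC and HS. prefixes, and any with KIAA, FLJ, MGC or orf) were left out of all but the lists. The comparison, the lists and these rules were chosen with earlier results of these data known. Some gene lists are not reported here. Promoter and microRNA sequences were matched by symbol. Alternatives were median scaling, cyclic loess, quantile over the 2 arrays alone, normexp with offset 50, background left in, the authors' values, detection at 0.05 or on both arrays, no detection filter, and the mean over probes.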

Additional observations from a re-analysis of the deposited data

Results flagged for a closer look

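Probes without a single gene name were not part of the comparison of genes. Of 3934 such probes detected on at least 1 of the 2 arrays, 5 were 2-fold or more higher in suspended than in adherent cells and 18 were 2-fold or more lower, 0.585% of them in all. Among 14617 named probes, 75 were higher and 88 lower by that measure, or 1.12%. The share was smaller among the unnamed probes, the difference was not tested, and the sources used here do not say which transcripts they read.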

How the results depend on the processing

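No paired analysis was possible because each state had 1 array. The counts of genes at 2-fold and 1.5-fold moved with how background was handled. With normexp and an offset of 50, 32 genes were 2-fold higher and 38 lower, and 157 and 116 at 1.5-fold. Without background correction 32 were 2-fold higher and 37 lower, and 156 and 115 at 1.5-fold. The authors' deposited normalized values gave 30 and 37 at 2-fold, and 149 and 113 at 1.5-fold. The larger offset and the uncorrected background leave or add background in each signal by construction, which draws ratios toward 1. How the authors' values were made is not given, so the same cannot be said of them. All 55 higher and all 72 lower genes kept their sign under these settings, under median scaling, cyclic loess, quantile over the 2 arrays, the looser detection limit, no detection filter and the mean over probes. Requiring detection on both arrays left 51 and 62 of them to compare. Under the other settings the counts stayed within 1.5 times. Medians of the FGF (0.11 to 0.23), WNT (0.05 to 0.18), TGF-beta (0.07 to 0.19) and semaphorin (-0.17 to -0.05) lists kept their sign throughout. Several other list medians close to 0 changed sign between settings. Among them were the sphingolipid (-0.01 to 0.11), G protein-coupled receptor (-0.01 to 0.08) and caspase (-0.07 to 0.04) lists. With the mean over probes, the opposed probes gave COL12A1 0.26, GCLC 0.34 and MAFF 0.58, the other sign, and APAF1 0.00. The marker PECAM1, near the detection limit, and LYZ also changed sign in some settings. Signal over background limits the dim genes, and the number of arrays limits all of them.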
